A study of Mus musculus with 6 samples.

Results

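The clock output factors described here are 7 genes that read out the circadian clock: the 3 PAR bZIP transcription factors Dbp, Tef and Hlf, the repressor Ciart, the basic helix-loop-helix repressors Bhlhe40 and Bhlhe41, and the deubiquitinase Usp2. They were taken by gene symbol, and each symbol matched 1 of the 29752 genes in the table of each library. The genes were chosen by their role in the clock and by their FPKM values in heterozygous against wild-type aortas, already known at that point, so their values in that contrast are given as a description, with no test. RNA was sequenced from 3 aortas labelled PALMD+/-, carrying 1 altered copy of Palmd (the gene of palmdelphin, a relative of paralemmin), and from 3 wild-type aortas labelled Ctrl. Mice of both groups were C57BL/6, 15 weeks of age, fed normal chow over the last 7 weeks, since they were 8 weeks old. Replicates are called heterozygotes 1, 2 and 3 and wild types 1, 2 and 3, after the numbers in the labels. The labels used here name neither the altered part of Palmd, nor the sex of the mice, nor the hour of tissue collection or the light schedule, nor do they tie libraries to single animals. P-values therefore measure the spread between these samples.

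The circadian clock of mammalian cells is a transcriptional loop in which the activators BMAL1 (encoded by Arntl) and CLOCK bind E-boxes and drive their own repressors, the period and cryptochrome proteins. The same activators drive output genes, which pass the rhythm on to tissue functions. DBP, TEF and HLF bind D-boxes through a basic leucine zipper and a proline and acidic amino acid-rich domain, and NFIL3 represses through the same sites. CIART (also called CHRONO) and the DEC proteins BHLHE40 and BHLHE41 repress BMAL1 and CLOCK at E-boxes, and USP2 removes ubiquitin from its target proteins. In vascular tissue the clock is known for daily rhythms in blood pressure and vessel tone.

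E-boxes are a known entry point of the clock into its output genes, and the promoters that hold them are shown for that reason. The 250 bases upstream of each RefSeq transcription start (GRCm38.p6) were searched on both strands for the E-box CACGTG, a palindrome, and 6 of the 7 genes had an entry, Tef with 2 starts. Bhlhe40 had no entry. Ciart held 3 E-boxes, at 116, 58 and 44 bases before its start, Tef held 1 upstream of each of its starts, and Bhlhe41 held 1. In all, 3 of the 6 genes held at least 1, where 6.02% of 32851 promoters of the same length did, and 3 or more E-boxes as in Ciart were found in 0.0609% of them. The windows that carry these E-boxes are shown up to the first annotated exon, with the E-box in capitals, all written 5′ to 3′ on the strand of the gene. They are chr3:95882252-95882478 on the minus strand for Ciart, chr15:81811164-81811413 on the plus strand for the downstream start of Tef, and chr6:145865559-145865670 on the minus strand for Bhlhe41.
Ciart: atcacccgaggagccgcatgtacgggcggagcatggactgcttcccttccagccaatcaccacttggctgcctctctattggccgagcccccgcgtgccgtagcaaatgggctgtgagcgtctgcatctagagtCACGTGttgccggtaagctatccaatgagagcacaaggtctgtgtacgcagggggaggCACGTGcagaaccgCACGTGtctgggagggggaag
Tef: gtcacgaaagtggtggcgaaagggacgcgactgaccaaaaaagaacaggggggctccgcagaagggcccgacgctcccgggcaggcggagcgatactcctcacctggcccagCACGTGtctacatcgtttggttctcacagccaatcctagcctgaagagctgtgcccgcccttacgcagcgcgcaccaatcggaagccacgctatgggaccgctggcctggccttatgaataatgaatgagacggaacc
Bhlhe41: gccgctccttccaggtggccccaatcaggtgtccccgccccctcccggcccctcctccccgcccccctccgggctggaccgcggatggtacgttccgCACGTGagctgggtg

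No E-box was found in the windows of Dbp, Hlf and Usp2. Hlf held a match to the cyclic AMP response element TGACGTCA at 9 bases before its start, an element found in 1.55% of all promoters of that length. None of the 6 genes held the E-box variant CACGTT, the D-box letters TTATGTAA, TTACGTAA or TTATGCAA, or the nuclear receptor element letters TAGGTCA or TGGGTCA. Those motifs were found in 3.85%, 0.819%, 0.113%, 0.694%, 2.23% and 3.24% of all promoters. A match describes the letters and not binding, and an absent match covers this window alone.

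**Figure D1:**
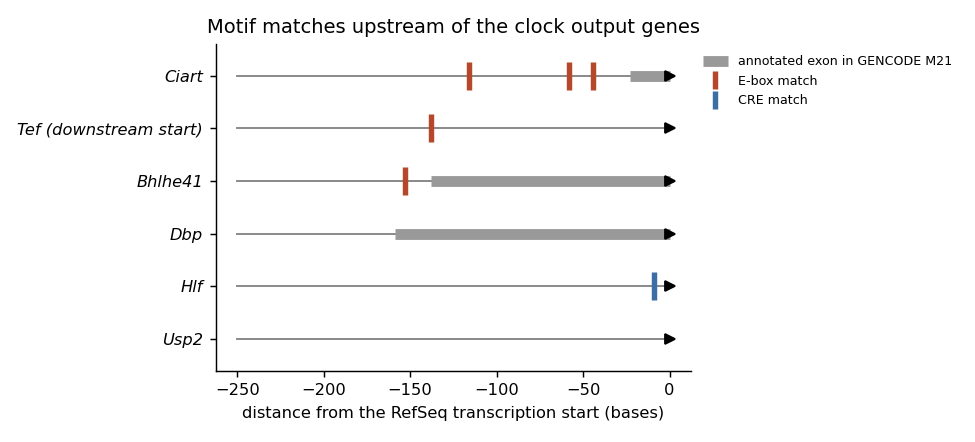
Distance of motif matches from the RefSeq transcription start (horizontal axis, bases) in the upstream windows of 6 clock output genes, with red marks for E-boxes, a blue mark for the cyclic AMP response element and grey bars for exons annotated in GENCODE M21. Ciart carries 3 E-boxes, Tef (downstream start) and Bhlhe41 carry 1 each, and the upstream start of Tef, which lies in annotated exons, is not drawn.

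The libraries were of nearly equal depth, at 17283951 to 18372131 reads each by the divisor that the values imply when taken as FPKM. Reads recovered from the values summed to 18163893 to 19418988 per library, above that divisor in each, and the reason was not tested. FPKM scale reads to gene length and to library depth. Palmd itself measured 5.31, 7.19 and 6.21 FPKM in heterozygotes 1, 2 and 3, against 5.49, 7.88 and 10.1 FPKM in wild types 1, 2 and 3. Its log2 difference was -0.26 (SE 0.21), with a limma adjusted p of 0.915. The groups overlapped, and reads over the whole gene do not check an allele whose altered part is unknown. Heterozygote 2 stood apart, with a mean correlation of 0.930 to the other libraries, where the others had 0.960 to 0.971. Its 5 cartilage markers summed to 105 FPKM, against 792 to 966 FPKM in the other libraries, nearly all of it Cytl1. Its 7 endothelial markers summed to 222 FPKM, against 690.0 to 769 FPKM. Pecam1, Cdh5, Vwf, Tek and Tie1 were lowest there, while Kdr was highest, at 14.6 FPKM against 3.43 to 5.42 FPKM, and Emcn lay within the range of the others. Its Schwann cell markers summed to 65.5 FPKM, against 8.44 to 16.6 FPKM. The 7 smooth muscle markers were above 1 FPKM in every library, with Acta2 at 3701 to 8367 FPKM, although Tagln was listed at only 2.12 to 4.29 FPKM. All 7 were lowest in heterozygote 2, where they summed to 4726 FPKM, against 7071 to 10190 FPKM in the other libraries. The white adipocyte markers summed to 5752 FPKM there, against 1689.5 to 4748.5 FPKM, although Car3 was highest in wild type 3. In bulk tissue, fewer cells of a type and less RNA per cell cannot be told apart.

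All 7 genes passed the filter on low values, which asks for at least 1 FPKM in at least 3 libraries. Dbp and Ciart reached 1 FPKM in 5 of the 6 libraries. In limma fitted across all genes on log2(FPKM + 1), 0 of the 7 were called at an adjusted p under 0.05. The background was the same, since 0.00% of the 12620 genes tested were called. Without adjustment, 820 genes (6.50%) had a limma p under 0.05, and limma voom on recovered reads called 0 genes, with 875 at an unadjusted p under 0.05. Groups were apart, meaning that their ranges did not overlap, in 2 of the 7, Dbp and Ciart, both higher in heterozygotes, as in 7.80% of all genes. Groups apart with lower heterozygotes were seen in 0 of the 7 and in 5.12% of all genes. These counts carry no weight of their own, because the contrast had been seen when the genes were selected.

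Dbp, the founding member of the PAR bZIP family (ENSMUSG00000059824, chromosome 7, 45705088 to 45710203 in GRCm38), measured 40.5, 35.2 and 8.96 FPKM in heterozygotes 1, 2 and 3, against 2.72, 3.38 and 0.965 FPKM in wild types 1, 2 and 3. Every heterozygote value lay above every wild-type value, and replicate 3 was the lowest in both groups. The means were 28.3 ± 16.9 FPKM in heterozygotes and 2.36 ± 1.25 FPKM in wild type (SD, n = 3 each), a ratio of 12.0. The log2 difference, taken on FPKM + 1 and so too small for low genes, was 2.96 (SE 0.59). It was 2.68 with heterozygote 2 left out and 3.61 with heterozygote 3 left out. The values rest on 490 to 2216 reads in heterozygotes and 52 to 186 reads in wild type, so that the lowest, wild type 3, has an exact 95% Poisson interval of 0.721 to 1.27 FPKM. Intervals of this kind cover counting error only, and they are too narrow where PCR copies were counted as independent molecules. Over the 6 libraries the highest Dbp value was 42.0 times the lowest, a wider log2 range than that of 99.9% of the tested genes. The last 737 bases of Dbp lie opposite the end of Sphk2, and a library that does not keep strand cannot separate both genes there. Sphk2 was at 9.61 to 11.7 FPKM in heterozygotes and 10.3 to 12.0 FPKM in wild type.

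Tef, the thyrotroph embryonic factor (ENSMUSG00000022389, chromosome 15, 81802421 to 81826863), had a higher level and a smaller spread. It measured 38.0, 35.6 and 20.1 FPKM in heterozygotes 1, 2 and 3, against 25.9, 20.8 and 14.3 FPKM in wild types 1, 2 and 3. Heterozygotes 1 and 2 were the highest of the 6 libraries, while heterozygote 3 lay within the wild-type range. The means were 31.2 ± 9.73 FPKM in heterozygotes and 20.3 ± 5.85 FPKM in wild type (SD, n = 3 each), a ratio of 1.54 and a log2 difference of 0.58 (SE 0.30). Hlf, the hepatic leukemia factor (ENSMUSG00000003949, chromosome 11, 90336536 to 90390895), measured 7.32, 5.33 and 2.48 FPKM in heterozygotes 1, 2 and 3, against 4.44, 4.15 and 3.45 FPKM in wild types 1, 2 and 3. The heterozygotes held both the highest and the lowest Hlf values, on either side of all 3 wild-type libraries. Their mean was 5.04 ± 2.44 FPKM, against 4.01 ± 0.509 FPKM in wild type (SD, n = 3 each), with a log2 difference of 0.18 (SE 0.31). This difference was -0.09 with heterozygote 1 left out and 0.54 with heterozygote 3 left out, so its direction rested on the library left out.

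The 3 PAR bZIP factors shared the order of the heterozygotes and had their lowest wild-type level in wild type 3, but differed in amplitude. In heterozygotes, replicate 3 had 22.1% of the Dbp level of replicate 1, 52.8% of its Tef level and 33.8% of its Hlf level. In wild type, replicate 3 had 35.4% of the Dbp level of replicate 1, 55.0% of its Tef level and 77.7% of its Hlf level. The ratio of Dbp to Tef, both per length, was 1.07, 0.989 and 0.447 in heterozygotes 1, 2 and 3, against 0.105, 0.163 and 0.0677 in wild types 1, 2 and 3. Tef and Hlf stayed closer to each other, with a ratio of 5.19, 6.69 and 8.10 in heterozygotes and 5.84, 5.01 and 4.13 in wild type.

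**Figure D2:**
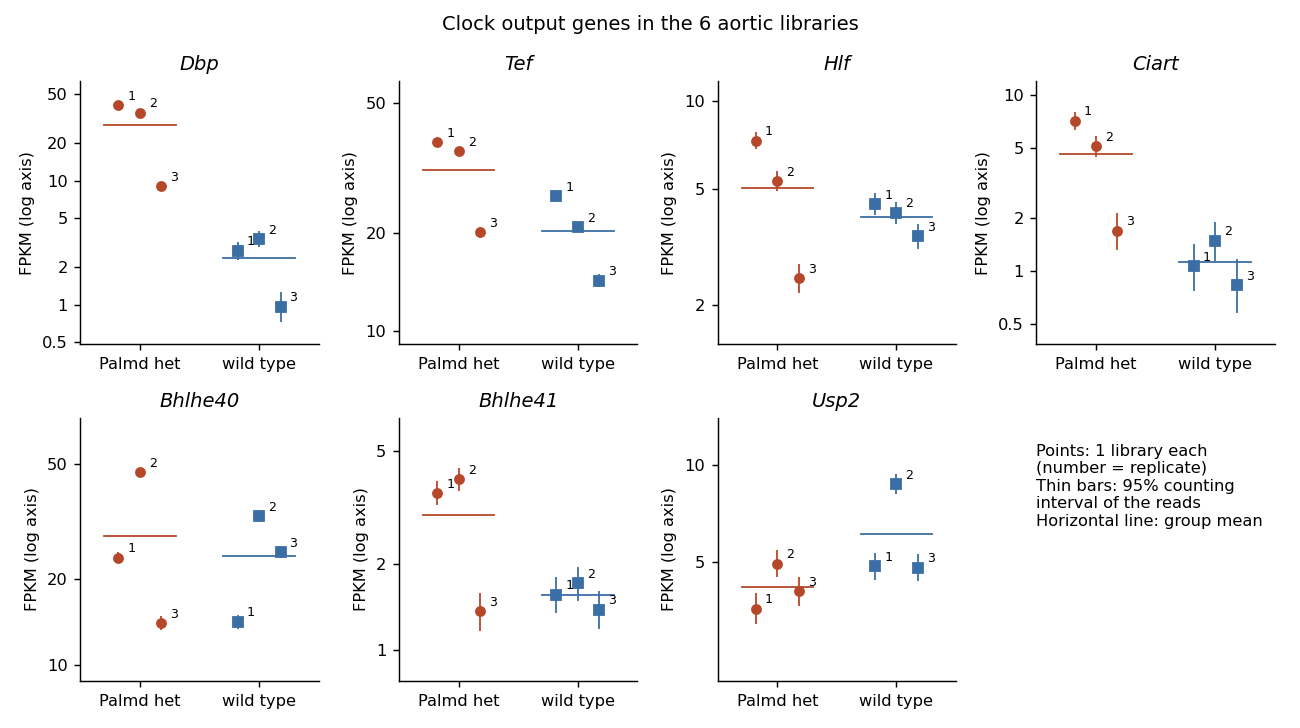
FPKM on a log axis of the 7 clock output genes in heterozygous (red circles, left) and wild-type (blue squares, right) aortas, with 1 point per library numbered by replicate, its 95% counting interval and the group mean as a line. The groups are apart for Dbp and Ciart, and heterozygote 3 lies below replicates 1 and 2 for every gene except Usp2.

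Ciart, the repressor of BMAL1 and CLOCK whose promoter carries the 3 E-boxes shown above (ENSMUSG00000038550, chromosome 3, 95878503 to 95882251), measured 7.12, 5.12 and 1.70 FPKM in heterozygotes 1, 2 and 3, against 1.06, 1.49 and 0.835 FPKM in wild types 1, 2 and 3. The groups were apart, but narrowly, because heterozygote 3 lay close above wild type 2. Counting error alone spans that gap, with exact 95% Poisson intervals of 1.32 to 2.14 FPKM on 70 reads in heterozygote 3 and 1.14 to 1.91 FPKM on 62 reads in wild type 2. The means were 4.64 ± 2.74 FPKM in heterozygotes and 1.13 ± 0.334 FPKM in wild type (SD, n = 3 each), a ratio of 4.11 and a log2 difference of 1.28 (SE 0.40). It was 1.15 without heterozygote 2. The antisense gene C920021L13Rik spans the whole of Ciart and was at or below 0.718 FPKM in every library, and unstranded reads cannot assign what both genes share. Antisense genes at Tef, Bhlhe40 and Bhlhe41 reached at most 0.156, 0.0538 and 0.308 FPKM.

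Bhlhe41, or DEC2 (ENSMUSG00000030256, chromosome 6, 145858243 to 145865558), measured 3.56, 3.99 and 1.37 FPKM in heterozygotes 1, 2 and 3, against 1.56, 1.72 and 1.39 FPKM in wild types 1, 2 and 3. Heterozygotes 1 and 2 lay above all wild-type libraries, and heterozygote 3 lay just below them. The means were 2.97 ± 1.40 FPKM in heterozygotes and 1.56 ± 0.165 FPKM in wild type (SD, n = 3 each), with a log2 difference of 0.57 (SE 0.28). Its close relative Bhlhe40, or DEC1 (ENSMUSG00000030103, chromosome 6, 108660629 to 108666925), did not share this order. Bhlhe40 measured 23.6, 46.7 and 14.0 FPKM in heterozygotes 1, 2 and 3, against 14.2, 32.9 and 24.7 FPKM in wild types 1, 2 and 3. Both groups spanned most of the range, with means of 28.1 ± 16.8 FPKM in heterozygotes and 23.9 ± 9.38 FPKM in wild type (SD, n = 3 each) and a log2 difference of 0.14 (SE 0.47). Without heterozygote 2 the difference was -0.30, and without wild type 1 it was -0.18. The 3 libraries with the most Bhlhe40 were those with the highest summed level of 7 brown adipocyte markers, 1293 FPKM in heterozygote 2 and 1050.0 and 839 FPKM in wild types 2 and 3. That sum was 79.7 and 296 FPKM in heterozygotes 1 and 3, and 240.5 FPKM in wild type 1. In heterozygote 2, Ucp1 alone made up 790 FPKM of the sum. Dio2 went the other way and was lowest in heterozygote 2, at 6.11 FPKM against 7.64 to 20.1 FPKM in the other libraries. Of those markers only Elovl3 was at 0 in any library. Heterozygote 1, with the lowest sum, was close to wild type 3 in Bhlhe40, at 23.6 against 24.7 FPKM. Their exact 95% Poisson intervals overlapped, at 22.6 to 24.7 and 23.7 to 25.8 FPKM. With the log2 summed level of the white and brown adipocyte markers together as a covariate, the Bhlhe40 difference was 0.27. The part of fat content in its values was not tested beyond that fit.

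Usp2 (ENSMUSG00000032010, chromosome 9, 44067021 to 44095627) was the only member with a lower mean in heterozygotes. It measured 3.57, 4.92 and 4.03 FPKM in heterozygotes 1, 2 and 3, against 4.84, 8.71 and 4.78 FPKM in wild types 1, 2 and 3. The groups overlapped, and wild type 2 was well above the other libraries. The means were 4.18 ± 0.688 FPKM in heterozygotes and 6.11 ± 2.25 FPKM in wild type (SD, n = 3 each), with a log2 difference of -0.42 (SE 0.23) that was -0.18 without wild type 2. Usp2 gives rise to isoforms from separate promoters, which values per gene do not separate.

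Heterozygotes 1 and 2 were the 2 highest libraries for 5 of the 7 genes, Dbp, Tef, Hlf, Ciart and Bhlhe41, a pattern shown by 5.95% of all genes tested. Replicate 3 was the lowest of its group, in heterozygotes and in wild type alike, for the same 5 genes and for 6.84% of all genes tested. Taken alone, heterozygote 3 was the lowest of its group for 23.2% of all genes tested, and wild type 3 for 38.9%. Both patterns were chosen after the values were seen, so their counts are a description. The replicate numbers were not taken to link a heterozygote with a wild-type library. Column headers number the heterozygotes differently from the titles used here, so a number shared by both groups depends on that choice. Without heterozygote 3 these 5 genes were above all wild-type values, where 11.3% of all genes were. That follows from heterozygotes 1 and 2 being their 2 highest libraries, so it repeats the first pattern and is no further result. In the same setting 0 of the 7 were below all wild-type values, where 8.49% of all genes were. With each other library left out in turn, Dbp and Ciart were the members with groups apart and a higher heterozygote level, which 12.9%, 20.7%, 14.9%, 10.5% and 10.7% of all genes had without heterozygotes 1 and 2 and wild types 1, 2 and 3. Without heterozygote 2 the groups of Usp2 were also apart, lower in heterozygotes, as in 12.4% of all genes. These genes have daily rhythms in many tissues, and the part of the hour of collection in the differences between libraries was not tested.

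**Figure D3:**
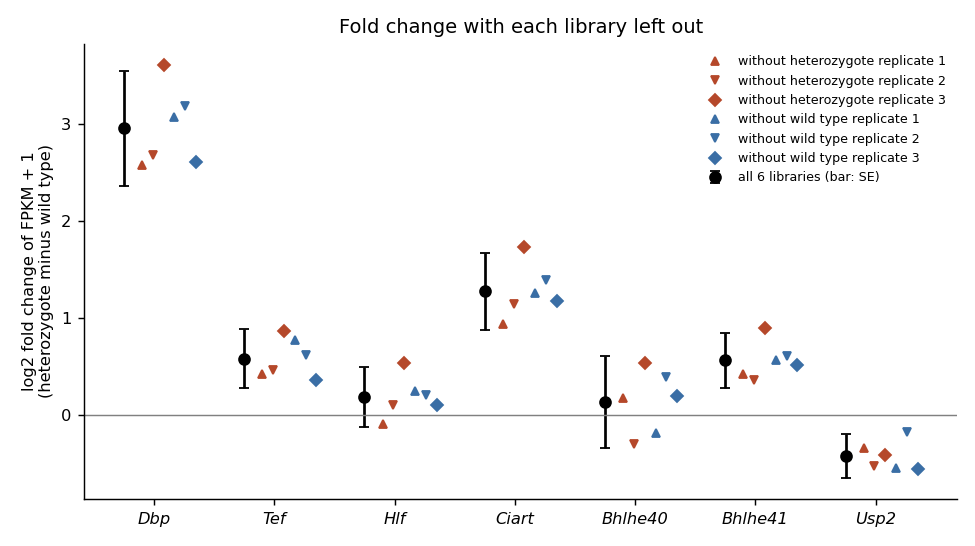
Log2 fold change of FPKM + 1, heterozygote minus wild type, of the 7 clock output genes with all 6 libraries (black, bar: SE) and with each library left out (coloured marks). Dbp stays between 2.58 and 3.61 and Ciart between 0.94 and 1.74, while the marks of Hlf and Bhlhe40 lie on both sides of 0.

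The order of the levels per length also differed between the groups. In heterozygotes Tef (31.2 FPKM), Dbp (28.3 FPKM) and Bhlhe40 (28.1 FPKM) were at the top with overlapping ranges, apart from Hlf, Ciart, Usp2 and Bhlhe41, whose neighbours in the order also overlapped. In wild type Bhlhe40 (23.9 FPKM) and Tef (20.3 FPKM) were at the top with overlapping ranges, then came Usp2, then Hlf, each apart from its neighbours, and then Dbp, Bhlhe41 and Ciart, where each overlapped the next. Dbp was thus the gene with the second highest mean in heterozygotes and the fifth highest in wild type.

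The genes with the most similar profiles were sought among 11253 other tested genes by the root mean square difference over the 6 libraries between log2(FPKM + 1) values, each centred on the mean of its gene. For Dbp the nearest were Nr1d1 (difference 0.54), which encodes the repressor REV-ERB alpha, Tcap (0.84), which encodes the titin cap of the striated muscle Z-disc, Nr1d2 (0.88), which encodes REV-ERB beta, and Ciart (0.90). They were followed by the immunoglobulin segment Ighj4 (difference 1.01), listed at 1.01, 0 and 1.03 FPKM in wild types 1, 2 and 3. Values so near the floor make its place uncertain. The profile of Dbp itself had a root mean square of 1.66 around its mean. For Tef the nearest was Per3 (0.12), which encodes a period protein, followed by Xlr3b, Adam11, Ppp1r1b and the microRNA gene Mir6976. For Hlf the nearest were the microRNA gene Mir1943 (0.18), the adrenergic receptor Adra1d (0.19), the taurine transporter Slc6a6 (0.19), Rab4a and Nrtn. Short microRNA genes take reads of longer transcripts around them, and their values are uncertain. This ranking depended on the scale. With each profile divided by its SD, the 5 nearest genes shared 0, 1 and 0 genes with those of Dbp, Tef and Hlf.

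Outside the 7 genes, the clock lists held no call either, although Cry1 and Nr1d1 were called when the libraries were weighted by array quality. That fit rested mostly on heterozygote 3 and wild type 2, with weights of 3.59 and 3.11 against 0.170 to 1.04 for the others. Over all genes it called 150 higher and 82 lower. Without weights, 0 of 8 core clock genes were called by limma in either direction. An unadjusted p under 0.05 was reached by 2 of the 8, where 6.50% of all genes tested reached it. Groups were apart for 2, both lower in heterozygotes, where 12.9% of all genes had groups apart in either direction. Cry1, which encodes a cryptochrome repressor, measured 2.46, 2.04 and 3.93 FPKM in heterozygotes 1, 2 and 3, against 9.71, 9.50 and 11.2 FPKM in wild types 1, 2 and 3 (log2 difference -1.58, SE 0.19, limma adjusted p = 0.231). Its groups were well apart, in the opposite direction to Dbp. The other was Clock, at 4.91 ± 0.297 FPKM in heterozygotes and 5.84 ± 0.435 FPKM in wild type (SD, n = 3 each). Per2 and Per3, which encode period proteins, had overlapping groups, with log2 differences of -1.10 and 0.67 (SE 0.37 and 0.36). Arntl, chosen for mention once its values had been seen, measured 1.01, 1.91 and 4.23 FPKM in heterozygotes 1, 2 and 3, against 3.05, 3.26 and 5.70 FPKM in wild types 1, 2 and 3, so that replicate 3 was the highest of each group, where Dbp was lowest.

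Of 6 genes in the list of nuclear receptors and Nfil3, 5 were tested and 0 were called by limma. An unadjusted p under 0.05 was reached by 2, and the same 2 had groups apart, both higher in heterozygotes. Over all genes tested, 6.50% were at such a p and 7.80% had groups apart with higher heterozygotes. Nr1d1 measured 87.7, 82.1 and 33.9 FPKM in heterozygotes 1, 2 and 3, against 5.07, 5.93 and 7.58 FPKM in wild types 1, 2 and 3 (log2 fold change 3.16, SE 0.37, limma adjusted p = 0.231). As with Dbp, replicate 3 was the lowest heterozygote, but wild type 3 was the highest of its group for Nr1d1 and the lowest for Dbp. Nr1d2 had a log2 fold change of 1.35 (SE 0.36, limma adjusted p = 0.596). Nfil3, which encodes the repressor at D-boxes, measured 10.8, 4.68 and 25.1 FPKM in heterozygotes 1, 2 and 3, against 25.5, 22.5 and 19.7 FPKM in wild types 1, 2 and 3. Its 2 lowest libraries were those with the most Dbp, Tef and Hlf (log2 fold change -0.96, SE 0.51, limma adjusted p = 0.824).

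**Figure D4:**
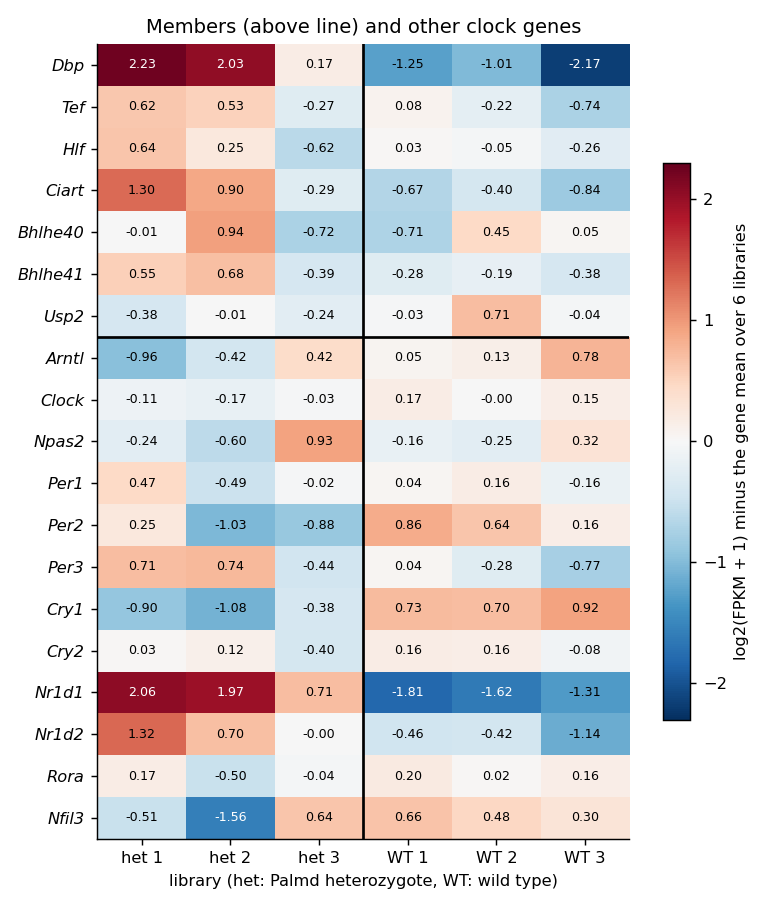
Log2(FPKM + 1) minus the gene mean over the 6 libraries (colour and printed value) of the 7 clock output genes, above the line, and 12 other clock genes, below it, in heterozygous (left 3 columns) and wild-type (right 3 columns) aortas. Dbp, Ciart, Nr1d1 and Nr1d2 are highest in heterozygotes 1 and 2, and Cry1 is lower in all 3 heterozygotes.

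Genes reported as targets of the PAR bZIP factors in mouse liver and other organs were measured as well. Of 7 such genes 5 were tested and 0 were called by limma. Only 1 was at an unadjusted p under 0.05, where 6.50% of all genes were. That was Cyp2b10, a cytochrome P450 of drug metabolism, at 1.06, 1.73 and 0.752 FPKM in heterozygotes 1, 2 and 3, against 2.62, 8.53 and 4.42 FPKM in wild types 1, 2 and 3 (log2 fold change -1.41, SE 0.36, limma adjusted p = 0.576). Its groups were apart in the direction opposite to Dbp, as in 5.12% of all genes. Alas1, the first enzyme of heme synthesis, was at 17.8 ± 9.41 FPKM in heterozygotes and 21.3 ± 8.51 FPKM in wild type, Pdxk, the pyridoxal kinase, at 5.40 ± 0.937 and 6.23 ± 0.233 FPKM, and the drug transporter Abcb1a at 2.46 ± 2.13 and 1.41 ± 0.367 FPKM (SD, n = 3 each), all with overlapping groups. The median log2 fold change of the 5 was -0.19, against 0.01 over all genes tested.

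Other genes rhythmic in many tissues were lower or overlapping. Over all genes tested, 5.12% had groups apart with lower heterozygotes and 7.80% with higher ones. An unadjusted limma p under 0.05 was reached by 6.50% of all genes. Of 17 in the list 15 were tested and 0 were called by limma. Of these 15, 4 were at an unadjusted p under 0.05, and the same number had groups apart, all lower in heterozygotes. These were the cell cycle inhibitor Cdkn1a (40.3 ± 16.8 FPKM in heterozygotes and 91.7 ± 19.1 FPKM in wild type), the cochaperone Fkbp5 (10.2 ± 1.92 and 17.2 ± 1.46 FPKM), Herpud1 (58.1 ± 15.8 and 89.8 ± 16.2 FPKM; SD, n = 3 each) and the transcription factor Klf10 (log2 difference -0.71, SE 0.25). Among 10 tested structural relatives, the C/EBP and HES/HEY factors with Nfil3, 1 was at an unadjusted p under 0.05 and had groups apart, Hes6, at 7.55 ± 1.26 FPKM in heterozygotes and 4.80 ± 0.258 FPKM in wild type (SD, n = 3 each, limma adjusted p = 0.548).

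Lists of genes that respond to stimuli known to reach clock outputs were counted beside these. The lists were chosen with earlier results of these data known, so the counts are a description. Over all genes tested, groups were apart in 12.9%, with 7.80% higher and 5.12% lower in heterozygotes. An unadjusted limma p under 0.05 was reached by 6.50% of all genes. Groups were apart for 5 of 17 immediate early genes, all lower in heterozygotes, among them Nr4a2, Junb and Ier2 (log2 fold changes -1.64, -1.25 and -0.88, SE 0.38, 0.29 and 0.21). They were apart for 1 of 12 tested hypoxia-responsive genes, Ndrg1, and for 2 of 10 tested glucocorticoid-responsive genes, Fkbp5 and Zbtb16, each lower. Zbtb16 measured 19.0, 4.79 and 4.62 FPKM in heterozygotes 1, 2 and 3, against 42.0, 37.1 and 34.1 FPKM in wild types 1, 2 and 3. Of 10 temperature-sensitive genes 2 were higher with groups apart, the cold-inducible RNA-binding genes Cirbp (27.0 ± 2.34 FPKM in heterozygotes and 16.9 ± 1.96 FPKM in wild type) and Rbm3 (19.6 ± 2.21 and 12.1 ± 2.50 FPKM; SD, n = 3 each), and 6 were lower, among them the heat shock genes Hsp90aa1 and Hspb1 (log2 fold changes -0.93 and -1.60, SE 0.25 and 0.44). In each of these lists 0 genes were called by limma, with 6 immediate early, 0 hypoxia-responsive, 2 glucocorticoid-responsive and 7 temperature-sensitive genes at an unadjusted p under 0.05. With array quality weights, Cirbp was called higher in heterozygotes and Hspb1, Fkbp5, Nr4a2, Junb, Ier2 and Zbtb16 lower. Klf10 and Cyp2b10 (lower) and Hes6 (higher) of the lists above were called as well. That weighted fit rested mostly on heterozygote 3 and wild type 2. The part of these responses in the levels of the clock output genes was not tested.

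**Figure D5:**
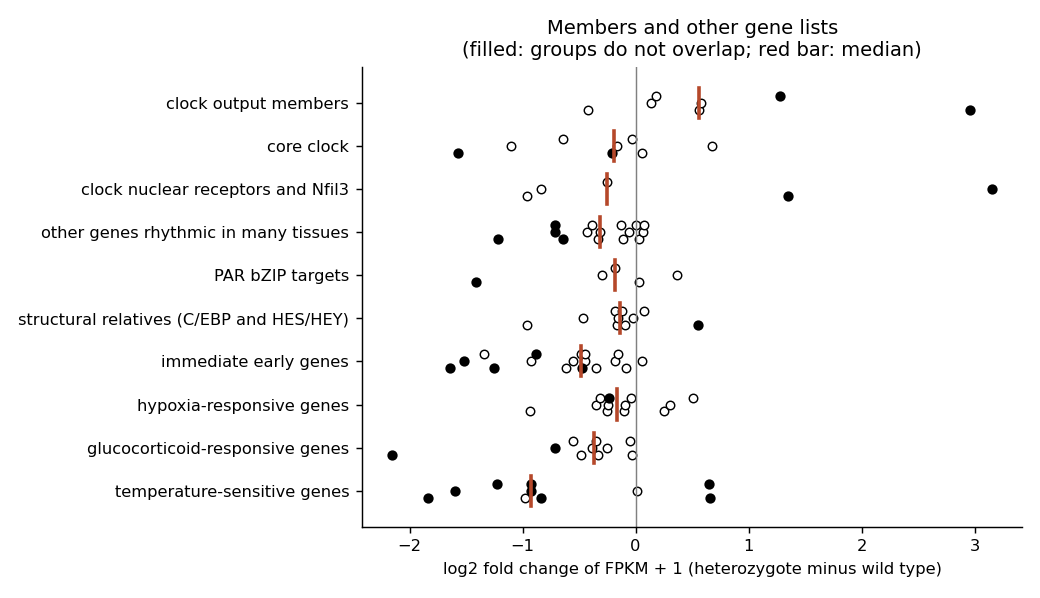
Log2 fold change of FPKM + 1, heterozygote minus wild type (horizontal axis), of each tested gene in the 7 clock output members and in 9 other lists (rows), with filled points where the groups do not overlap and a red bar at the median. The members have a median of 0.57, with Dbp at 2.96, and the other lists have medians of -0.14 or lower. Over all genes tested the median was 0.01. Members and lists were chosen with earlier results of these data known, so their medians are a description and not a comparison.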

How the data were processed

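Each deposited table holds 1 aortic library, with values calculated by the authors and taken here as FPKM. They were multiplied by gene length (exon union, GENCODE M21, GRCm38). Of those of genes with up to 20 reads, 95.0% to 95.5% then fell within 0.01 reads of a whole number of steps. Such steps show values proportional to reads per length, which does not settle the unit. The step gives the depth only if the unit is FPKM. The sources used here state neither the counting tool and annotation nor whether reads or fragments were counted. Bowtie2 2.2.3, HISAT2 2.1.0, TopHat2 and GRCm38 are named, with no role, per the submitters' processing notes. Per the labels' protocols mRNA was selected on poly-T beads, and no strand-keeping step is named. Column headers number the heterozygotes differently from the titles, which were used here, and the group is the same under both. The replicate block and the correlations of same-numbered libraries rest on the numbers of the titles. Tef gave no whole reads at the GENCODE length, so its reads are rounded and its counting intervals are approximate.

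A limma fit with a mean-variance trend (limma 3.58.1, R 4.3.3) was made on log2(FPKM + 1) for 12620 genes, with no covariate and Benjamini-Hochberg adjustment over all of them (threshold 0.05). Its code was run on simulated data with independent noise for each gene. They held no shift of a whole library such as that of heterozygote 2, so they do not measure the error rates of the fit here. Tables and plots used Python 3.11.15, numpy 2.4.6, pandas 2.3.3, scipy 1.17.1 and matplotlib 3.10.9. Promoter sequences are from RefSeq (GRCm38.p6). Members and lists were chosen with earlier results of these data known. Named are all members, up to 4 genes of each list with the smallest p, and the 5 genes with the most similar profile to Dbp, Tef and Hlf, without predicted genes and pseudogenes. A gene of the nuclear receptor list is not reported here. Cell type markers were summed per library. Alternatives were other pseudocounts, filters, scalings and models, and each library left out.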

Additional observations from a re-analysis of the deposited data

How the results depend on the processing

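Dbp, Tef, Ciart, Bhlhe41 and Usp2 had the same direction in all 16 alternatives, Hlf in 14 and Bhlhe40 in 13, and the cause of these shifts was not tested. Leaving out 1 library at a time gave log2 fold changes of 2.58 to 3.61 for Dbp, 0.36 to 0.86 for Tef, -0.09 to 0.54 for Hlf, 0.94 to 1.74 for Ciart, -0.30 to 0.54 for Bhlhe40, 0.36 to 0.90 for Bhlhe41 and -0.55 to -0.18 for Usp2. It gave 0 to 1 genes called higher and 0 to 1 called lower over all genes (limma), 0 to 1 in each direction among the other pathway genes (Nr1d1 higher without heterozygote 3, Zbtb16 lower without heterozygote 1), and 2 to 5 members above the wild type with groups apart, a count chosen after seeing the data, where 10.5% to 20.7% of all genes were. Array quality weights moved most results. They gave heterozygote 3 and wild type 2 weights of 3.59 and 3.11, heterozygote 2 a weight of 0.170 and the others 0.668 to 1.04. The weighted fit thus rested mostly on heterozygote 3 and wild type 2. It had 3326 genes at an unadjusted limma p under 0.05, against 820 in the main fit. In it 150 genes were called higher and 82 lower. Pathway genes among them were 3 higher (Nr1d1, Cirbp, Hes6) and 9 lower (among them Cry1, Cyp2b10, Fkbp5, Klf10 and Zbtb16). Dbp, Hlf, Ciart, Bhlhe40 and Bhlhe41 were at 1.85, -0.31, 0.53, -0.74 and 0.039, with 0 members called. The other alternatives called 0 genes. With the replicate block 0 genes were called, with 738 at an unadjusted p under 0.05, and Dbp was at 2.96. The block cannot move fold changes in this balanced design, but the SE was 0.24 in place of 0.59 for Dbp, 0.12 in place of 0.30 for Tef and 0.13 in place of 0.23 for Usp2. Same-numbered libraries had correlations of their deviations of 0.51, -0.09 and -0.34 for numbers 1, 2 and 3, not all above 0.1, so the numbers were not taken to pair them. A pseudocount of 0.1 gave 3.43 for Dbp and 1.76 for Ciart. With it the 5 nearest profiles shared 2 and 3 genes with those of Tef and Hlf, and with profiles divided by their SD 0, 1 and 0 genes with those of Dbp, Tef and Hlf. Low counts limit Ciart and Dbp in wild type, which rest on 34 to 62 and 52 to 186 reads.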

Other observations

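Set against the core activator within the same library, Dbp ranged widely. The ratio of Dbp to Arntl, both per length, was 40.1, 18.4 and 2.12 in heterozygotes 1, 2 and 3, against 0.892, 1.04 and 0.169 in wild types 1, 2 and 3. The lowest heterozygote ratio lay above the highest wild-type ratio. The ratio of Dbp to Cry1 was 16.5, 17.2 and 2.28 in heterozygotes 1, 2 and 3, against 0.280, 0.356 and 0.0860 in wild types 1, 2 and 3. The ratio of Dbp to Nr1d1 behaved differently, at 0.463, 0.429 and 0.265 in heterozygotes and 0.537, 0.571 and 0.127 in wild type, and its groups overlapped. These ratios were chosen after the values were seen and are a description.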
